A study of Arabidopsis thaliana with 4 samples.

Results

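Cell wall genes of Arabidopsis thaliana were examined in apetala1 and wild-type inflorescences. They were chosen by name. A probe entered when every gene annotated to it had a symbol or synonym of the expansin (EXPA, EXPB, EXLA, EXLB), XTH, CSLA to CSLG, CESA, PME, GATL, GAUT, FLA, AGP, EXT, BGAL, GH9 or TBL families. This gave 61 probes out of 26474. Probes assigned to 1 gene alone were averaged per gene, and probes assigned to several family members were kept as they are, so that 27 genes and 33 several-gene probes stood as 60 features among 26133. A slash joins the genes of a several-gene probe, whose transcripts it cannot tell apart. The apetala1 plants lack function of the floral MADS-box gene AP1; the allele, background and age are not given in the labels, and the comparison group was called wild type only. Each of the 4 two-colour arrays, named sets 1 to 4, received total RNA of both genotypes, with the channels exchanged on sets 2 and 4. No label tells whether each set had its own plants, and p-values cover only how much these 4 arrays vary, possibly for technical reasons alone.

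Values are log2 ratios of the 2 channels. Which genotype is the numerator is not given in the sources used here, so no value can be read as more or less RNA in the mutant. Signs are those of sets 1 and 3, with the values of sets 2 and 4 turned. Over all probes, 26367 to 26436 values were present per array. Values at the deposited limits of plus and minus 6.64 give only a bound and were left out. Ratios carry no level, so the tissue label could not be checked against markers, and fewer cells of a type and less RNA per cell cannot be told apart.

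The plant primary wall is a network of cellulose microfibrils, xyloglucan and other hemicelluloses, and pectin, and floral organs grow as far as this network yields. Expansins loosen it without cutting its polymers, XTH enzymes cut and rejoin xyloglucan, and GH9 endoglucanases cleave glucan chains. Of the CSL synthases, those of the CSLA and CSLC families make hemicellulose backbones in the Golgi. The GAUT transferases work on pectin, and TBL proteins include the transferases that acetylate wall polysaccharides.

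No cell wall feature passed the test over all features. Of the 60 features, 59 had a value on at least 3 arrays and were tested with limma, and 0 reached an adjusted p below 0.05, against 0.220% of all 25415 features. That share is 56 features, and fits without 1 array called 0, 0, 1 and 2 features without sets 1, 2, 3 and 4. The smallest adjusted p was 0.0909, that of CSLC04. At an unadjusted p below 0.05 there were 20 of 59, against 16.3% of all features. Of these, 15 were positive, against 9.18%, and 5 were negative, against 7.14%. An absolute mean ratio of at least 1 was reached by 2 of 59, against 2.66%. The median of the 59 mean ratios was 0.06, beside -0.02 over all features, and 0.17 without set 2. Their median absolute size was 0.29, beside 0.18. Of the 57 features with a value on all 4 arrays, 23 had 1 sign throughout once sets 2 and 4 were turned, or 40.4%, against 27.3% of all such features. The positive ones numbered 16, against 13.4%, and the negative ones 7, against 13.8%. Probes of close relatives share genes and sequence, so these features are not independent of each other.

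The expansins had 13 features for 15 genes, and 11 of the 13 kept 1 sign on all 4 arrays, 7 positive and 4 negative, against 27.3% of all features. At an unadjusted p below 0.05 there were 10 of 13, against 16.3%. Their median absolute ratio was 0.67, beside 0.18 for all features, and none reached an adjusted p below 0.05. In the plot of sizes, their curve lies to the right of that of the 59 cell wall features and of all features. The subfamilies did not run one way, since EXPA and EXLA features were mostly positive while EXPB went both ways. These features overlap. EXPA21 and EXPA24 are also on the probe of EXPA21/EXPA23/EXPA24/EXPA25, the EXLA probes share genes, and both negative EXPB features are probes of EXPB1/EXPB3. The counts among the 13 features are thus not counts of separate genes.

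**Figure D1:**
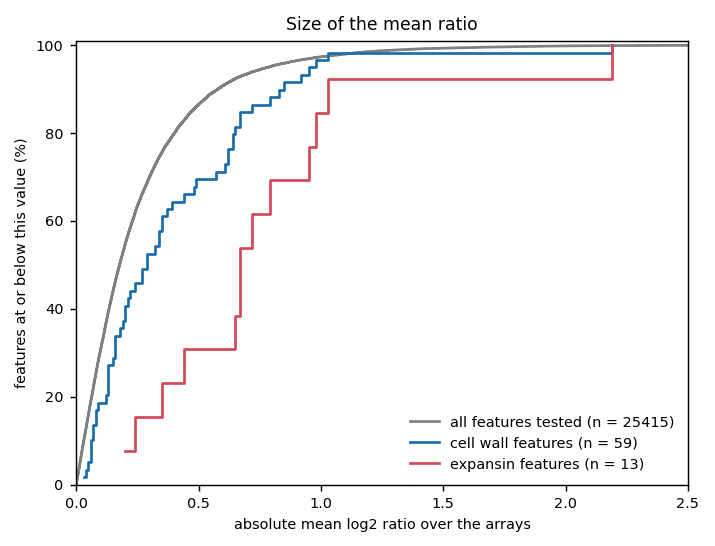
Cumulative share of features (vertical axis, percent) by the absolute mean log2 ratio over the arrays (horizontal axis), for all 25415 features tested, the 59 cell wall features and the 13 expansin features among them. The median absolute ratio was 0.18, 0.29 and 0.67 in the same order.

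The largest ratio among the cell wall genes belonged to alpha-expansins that lie close together in the genome. The probe for EXPA21/EXPA23/EXPA24/EXPA25 read 2.20, 3.52, 1.91 and 1.12 on sets 1 to 4. All 4 values lay more than 1 log2 unit above 0, with set 2 highest and set 4 lowest. Its mean log2 ratio was 2.19 ± 1.0 (SD, n = 4), a 4.56-fold difference, with a limma adjusted p of 0.0962. In the gene table of assembly TAIR10.1, EXPA24 (AT5G39310) and EXPA25 (AT5G39300) are adjacent, and 1 protein-coding gene lies between EXPA21 (AT5G39260) and EXPA23 (AT5G39280) and 1 between EXPA23 and EXPA25.

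Probes of single genes in this cluster had smaller mean ratios than the several-gene probe, and were not tested against each other. EXPA21 alone read 1.01, 1.53, 0.51 and 1.06, positive on every array and highest on set 2. Its mean was 1.03 ± 0.42, or 2.04-fold, with a limma adjusted p of 0.106. EXPA24 alone read -0.06, 0.14, 0.51 and 0.22, with a mean of 0.20 ± 0.24 and a limma adjusted p of 0.499. EXPA21 differed from the several-gene probe by -1.16 ± 0.81 and EXPA24 by -1.99 ± 1.09 on the log2 scale. Both differences were negative on 4 of 4 arrays, though that of EXPA21 was only -0.05 on set 4. The exact two-sided sign-flip permutation p was 0.125 for each difference. This is the smallest p that 4 arrays allow.

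Other alpha-expansins gave smaller ratios. EXPA20/EXPA9 read 0.33, 0.71, 0.38 and 0.34, a mean of 0.44 ± 0.18 (limma adjusted p = 0.205). EXPA20 by itself lay on the other side on 3 of 4 arrays, at -0.69, -0.29, 0.17 and -0.60, with a mean of -0.35 ± 0.39 (limma adjusted p = 0.380). The EXPA20 probe was below the EXPA20/EXPA9 probe on all 4 arrays, by a mean difference of -0.79 ± 0.39 (exact two-sided permutation p = 0.125). The probe of EXPA7 and EXPA18, the root hair expansins, was slightly negative throughout, from -0.41 to -0.07, with a mean of -0.24 ± 0.14 (limma adjusted p = 0.381).

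The beta-expansins were on both sides. Both probes of EXPB1/EXPB3 were negative on every array. One (A020837_01) read -1.76, -1.30, -0.05 and -0.70 and the other (A019752_01) -1.03, -0.76, -0.09 and -0.70. In each the value of set 3 was close to 0 and that of set 1 was the lowest. Their means were -0.95 ± 0.74 and -0.65 ± 0.40, with limma adjusted p of 0.217 and 0.195. EXPB5 was positive instead, at 0.80, 0.30, 0.20 and 1.38, with a mean of 0.67 ± 0.54 (limma adjusted p = 0.244), or 0.43 without set 4. The value of EXPB5 was also closest to 0 on set 3.

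Expansin-like proteins share the expansin fold, and wall-loosening activity is not established for them. The probe of EXLA1/EXLA2/EXLA3 read 0.99, 1.12, 0.38 and 1.42, positive on all arrays, and its mean of 0.98 ± 0.44 was a 1.97-fold difference (limma adjusted p = 0.119). EXLA1/EXLA3, whose genes are adjacent, read 0.35, 0.57, 0.27 and 1.49, a mean of 0.67 ± 0.56 (limma adjusted p = 0.248), or 0.40 without set 4. EXLA2/EXLB1 read 0.78, 0.60, 0.33 and 1.17, a mean of 0.72 ± 0.35 (limma adjusted p = 0.151). All 3 probes were highest on set 4 and lowest on set 3. EXLB1 alone was negative on every array, at -0.97, -0.60, -1.36 and -0.21, with a mean of -0.79 ± 0.50 (limma adjusted p = 0.185). It lay below EXLA2/EXLB1 by -1.51 ± 0.26, on 4 of 4 arrays (exact two-sided permutation p = 0.125, the smallest possible).

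**Figure D2:**
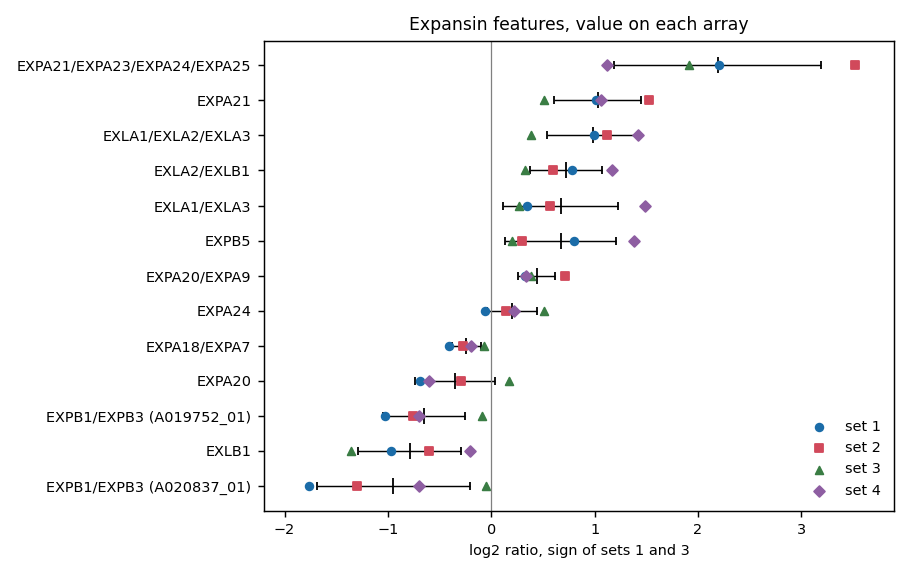
Log2 ratio on each array, in the sign of sets 1 and 3 (horizontal axis), for the 13 expansin features (vertical axis), with the symbols standing for sets 1 to 4, the black tick for the mean and the bar for 1 SD. The probe of EXPA21/EXPA23/EXPA24/EXPA25 lies farthest to the right, with a mean of 2.19, and both EXPB1/EXPB3 probes and EXLB1 lie to the left of 0 on all 4 arrays.

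Among the backbone synthases, 5 CSL features for 6 genes were measured. Of these, 2 were positive on all 4 arrays, against 13.4% of all features with 4 values. CSLC04 (AT3G28180), of the CSLC family that makes the glucan backbone of xyloglucan, read 1.1, 0.59, 0.69 and 0.92. The spread between arrays was small beside the mean of 0.83 ± 0.23, a 1.77-fold difference with a limma adjusted p of 0.0909. CSLA01 (AT4G16590), of the mannan synthase family, read 0.83, 0.25, 1.0 and 1.61, with a mean of 0.92 ± 0.56 (limma adjusted p = 0.170).

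Other CSLC probes did not follow CSLC04. The probe of CSLC04/CSLC08/CSLC12/CSLC5 read -1.01, -0.46, -0.06 and 0.18, with a mean of -0.34 ± 0.52 (limma adjusted p = 0.481), or -0.11 without set 1. CSLC04 by itself lay above it on 4 of 4 arrays, by 1.16 ± 0.65 (exact two-sided permutation p = 0.125). The means of CSLC6 and of CSLC08/CSLC5/CSLC6 were 0.06 and -0.16, and their arrays lay on both sides of 0.

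The GH9 endoglucanases had 15 features for 16 genes, 10 with a mean above 0 and 5 below. Over all features, 47% had a mean above 0. The genes GH9B9, GH9B10, GH9B11 and GH9B12 are adjacent to each other, and the probe assigned to the 4 of them read 0.57, 0.57, 0.59 and 0.85. These values were close together, with a mean of 0.64 ± 0.14, or 1.56-fold (limma adjusted p = 0.106). GH9B10/GH9B9 had a smaller ratio of 0.22 ± 0.09, positive on all arrays (limma adjusted p = 0.393). GH9B11 alone read 0.61, 0.54, -0.02 and 1.32, and GH9B12 alone 0.08, 0.53, 0.24 and -0.67. Their means of 0.62 ± 0.55 and 0.05 ± 0.51 had limma adjusted p of 0.267 and 0.935.

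GH9B8 (AT2G32990) was the most negative of the endoglucanases. It read -0.93, -1.36, -0.42 and -0.69, below 0 on every array, with a mean of -0.85 ± 0.40, or 1.80-fold (limma adjusted p = 0.135). The probe that GH9B8 shares with GH9C1, GH9C2 and GH9C3 had a mean of -0.12 ± 0.46, and GH9B8 lay below it by -0.73 ± 0.11, on 4 of 4 arrays (exact two-sided permutation p = 0.125). GH9A4, of the class of membrane-anchored endoglucanases, read 0.70, 0.46, 0.06 and 1.36, with a mean of 0.64 ± 0.54 (limma adjusted p = 0.254), or 0.40 without set 4.

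Those GH9C enzymes carry a carbohydrate-binding module. GH9C2/GH9C3 was positive on all arrays with a mean of 0.27 ± 0.25 (limma adjusted p = 0.399), or 0.15 without set 4. GH9C1 read -0.79, -0.75, -0.61 and 0.99, so that set 4 lay on the other side, and its mean was -0.29 ± 0.85. The negative probe of GH9B5/GH9B7 (A005984_01) had a mean of -0.27 ± 0.16 (limma adjusted p = 0.336), and the other probe of these genes had 0.08 ± 0.38. GH9B16 was measured on 3 arrays, at 1.06, 0.51 and -0.39 on sets 2 to 4, and stood at the upper limit on set 1.

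The TBL family had the most genes reached by probes that met the rule, 22, and its ratios were small. Its 20 tested features had a median mean ratio of -0.06 and a median absolute ratio of 0.20, close to the 0.18 of all features. Of the 19 with 4 values, 3 were positive and 1 was negative on all arrays, or 21.1%, against 27.3% of all such features. TBL20 read 0.43, 0.33, 0.25 and 0.46, a mean of 0.37 ± 0.10 (limma adjusted p = 0.218). TBL41 read 0.44, 0.20, 0.50 and 0.20, a mean of 0.34 ± 0.16 (limma adjusted p = 0.262), and TBL37/TBL38/TBL41 was also positive, at 0.21 ± 0.12 (limma adjusted p = 0.420). These ratios were small and varied little between arrays.

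One probe of TBL23/TBL24, which act on mannan (A013837_01), read -0.57, -0.40, -0.31 and -0.14, a mean of -0.35 ± 0.18 (limma adjusted p = 0.257), while the other had -0.06 ± 0.24. The xylan acetyltransferases TBL32/TBL33 also had unlike probes, with means of -0.48 ± 0.52 and 0.06 ± 0.06. For TBL34/TBL35, which act on xylan too, the means were -0.13 and -0.09. TBL25/TBL26, of the mannan group, had -0.29 ± 0.58, and TBL31 and TBL30 had -0.13 ± 0.74 and 0.04 ± 0.70. None of these passed in limma. At the upper end of the family, TBL36/TBL42/TBL43 read 0.26, -0.02 and 1.22 on sets 1 to 3. On set 4 it stood at the upper deposited limit, which turning makes the lower limit, and this value was left out. Its mean was 0.49 ± 0.65 (SD, n = 3; limma adjusted p = 0.449), 0.12 without set 3 and 0.74 without set 2. At the lower end, TBL39/TBL40/TBL42 read -1.39, -1.35, 0.12 and 0.21, so that sets 1 and 2 carried its mean of -0.61 ± 0.89 (limma adjusted p = 0.428), which was -0.34 without set 1 and -0.36 without set 2. TBL36 by itself stood at the upper deposited limit on sets 2, 3 and 4 and at 0.21 on set 1, and was not tested. The share of empty spots at that limit was 19.4% on set 1 and 58.9% to 64.7% on the other sets, against 0.664% to 3.59% of probes on the 4 arrays.

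None of the 5 XTH genes kept 1 sign on all 4 arrays, against 27.3% of all features with 4 values. XTH19 read 1.08, -0.59, 0.35 and 1.62, with a mean of 0.62 ± 0.96 (limma adjusted p = 0.448), and set 2 lay opposite to the others. The mean was 1.02 without set 2 and 0.28 without set 4. XTH26 had 2 probes with means of 0.63 ± 0.61 and 0.50 ± 0.63, and their average was 0.57 ± 0.52 (limma adjusted p = 0.280). XTH20 and XTH33 had means of 0.03 and 0.07. The 1 pectin synthesis gene with a probe that met the rule was GAUT15. It read 0.18, -0.85, 0.02 and -0.07, a mean of -0.18 ± 0.46 (limma adjusted p = 0.685), or 0.04 without set 2.

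XTH21 (AT2G18800) had the widest spread of the cell wall genes. After turning it read 1.17, -2.22, 1.47 and -1.06, a mean of -0.16 ± 1.78 (limma adjusted p = 0.927), so that sets 1 and 3 lay on one side and sets 2 and 4 on the other. As deposited it was positive on all 4 arrays, at 1.17, 2.22, 1.47 and 1.06. Its mean was 0.53 without set 2 and 0.14 without set 4, so its sign rested on these arrays. With no array turned its mean was 1.48, and limma with channel order as a term gave a p of 0.00116 for that term, or 0.723 adjusted over all features. The limma adjusted p of XTH21 with no array turned was 1, and 0.289 with limit values kept as well. Of the 57 features with 4 values, 4 were positive as deposited on every array, namely XTH21, TBL30, TBL39/TBL40 and GAUT15, and 1 was negative, a TBL34/TBL35 probe. Over all features 6.69% and 5.03% had these patterns, and 11.7% had either of them, against 5 of the 57.

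**Figure D3:**
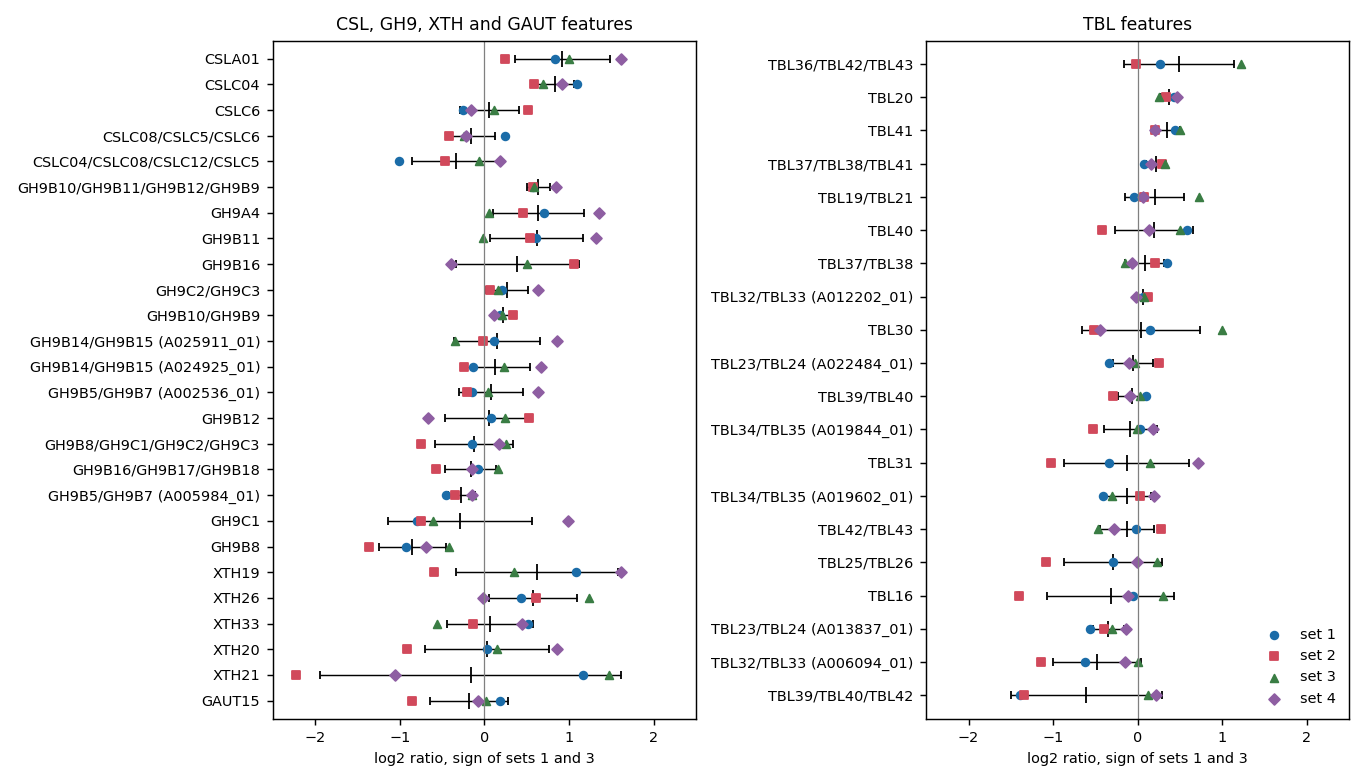
Log2 ratio on each array, in the sign of sets 1 and 3 (horizontal axes), for the CSL, GH9, XTH and GAUT features (left) and the TBL features (right), with the symbols standing for sets 1 to 4, the black tick for the mean and the bar for 1 SD. CSLC04 and CSLA01 lie to the right of 0 and GH9B8 to the left on all 4 arrays, while XTH21 spans -2.22 to 1.47.

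For all 13 expansin features the mean deposited value of sets 1 and 3 and that of sets 2 and 4 had opposite signs. The same held for 38 of the 57 cell wall features and for 60.8% of all features with 4 values. Any feature with 1 sign on all 4 arrays after turning has this pattern by arithmetic. That applies to 11 of the 13 expansin features. Across the member probes, the Pearson correlation between sets 1 and 2 was -0.62 as deposited over 59 probes, beside -0.36 over all probes. Between sets 3 and 4 it was -0.14 beside -0.07, and the pair of sets 1 and 3, with the same channel order, gave 0.60 beside 0.34. Sets 1 and 4 gave -0.54 beside -0.21, and sets 2 and 3 gave -0.36 beside -0.07. Sets 2 and 4, also alike in channel order, gave 0.44 beside 0.24. Probes of one array share the hybridisation and some share genes, so these are descriptions. Sets 2 and 4 were turned because their channels are exchanged. Whether the deposited ratios already allow for the exchange is not stated in the sources used here. The correlations above are not a separate test of it.

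**Figure D4:**
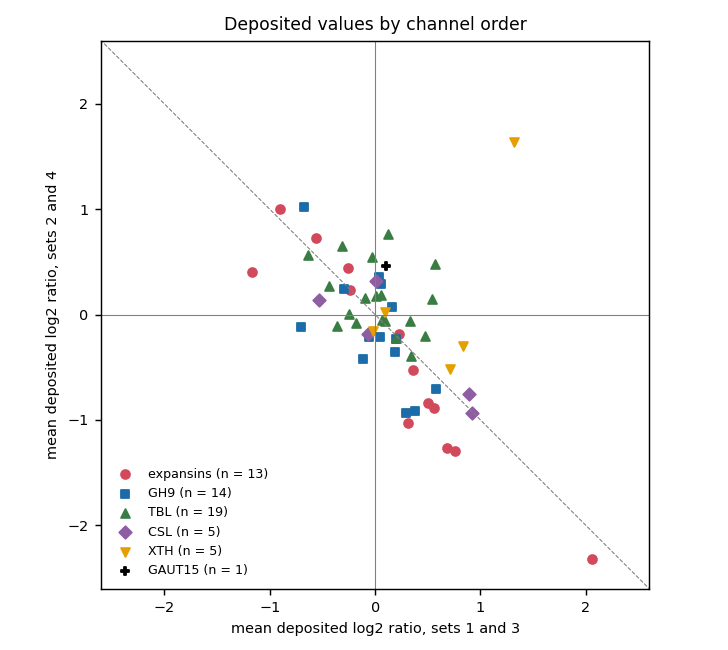
Mean deposited log2 ratio of sets 1 and 3 (horizontal axis) against that of sets 2 and 4 (vertical axis) for the 57 cell wall features with 4 values, by family. The dashed line marks equal size and opposite sign. The 13 expansin features lie in the upper left and lower right, and XTH21 lies in the upper right.

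Probes that share genes did not always give one answer. Of 7 genes or gene groups with 2 probes each, 5 had probe means of 1 sign. Of 13 pairs of a single-gene probe and a several-gene probe that includes the same gene, 6 had means of opposite sign, and in 7 the difference had 1 sign on all 4 arrays. Over the 13 pairs the smallest adjusted p was 0.232 by the exact permutation test, which with 4 arrays cannot go below 0.125 before adjustment. A value of a several-gene probe is therefore given for the group and for none of its genes.

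The names cover a part of the wall machinery. The gene table holds 291 genes with such a name, of which 65 were reached, 27 by a probe of their own and 38 by a shared one. No CESA, PME, GATL, FLA, AGP, EXT or BGAL gene had a probe that met the rule. A second list, matched by names of other wall genes, reached 11 features. Of these, 0 were called by limma, against 0.220% of all features, and 0 had an unadjusted p below 0.05, against 16.3%. The prefixes of this list also took in 7 features of glutamate receptor-like (GLR) genes, the splicing factor probe PRP39/PRP39-2 and AT5G46850, matched through a clone name. The counts therefore say little about other wall genes. The features of wall genes were FER, a receptor kinase that senses the wall, at 0.23 ± 0.09, and IRX15/IRX15-L, needed for xylan, at -0.33 ± 0.49 (limma adjusted p = 0.377 and 0.470). The largest ratio of the list was that of GLR2.2/GLR2.3, at 0.50 ± 0.95.

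Marker genes of other cell types were also sparse. The 2 pollen features, both VGD1/VGDH1, which encode pectin methylesterases of pollen tubes, had means of 0.45 and 0.19. The tapetum genes SHT and ATA20 had -0.71 and -0.30, the green-tissue gene LHB1B2 had -0.28 and the ovule gene INO had 0.17. No tested feature was assigned to petal markers alone, though 13193 probes had no listed gene. None of the 6 marker features was called by limma, against 0.220% of all features. The part of these markers in the cell wall values was not tested.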

How the data were processed

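Each deposited column holds 1 array's log2 channel ratios, which per the labels the authors normalized by a published method. The software, dyes, background correction and numerator used are not stated by the labels. The base follows from the limits of plus and minus 6.64, the log2 of 100. Rows of empty spots and controls were left out. Genes came from the platform annotation, in which 5784 probes had 1 gene, 7497 had more and 13193 were unlisted, and from the gene table of TAIR10.1.

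Limit values were left out, sets 2 and 4 turned, and single-gene probes averaged. Features with values on at least 3 arrays were compared with 0 in limma 3.58.1 (R 4.3.3; lmFit, eBayes), two-sided, with Benjamini-Hochberg adjustment over all 25415 features. The fit was tested on simulated data. The members, lists and tests were chosen with earlier results of these data known. Named features are those with 1 sign on all 4 arrays and the extremes of each family. Others given with values, EXPA20, EXPA24, CSLC6, XTH26 and further probes of named genes among them, were chosen after their values were seen. Alternatives covered limit values, orientation, centring, quantile normalization, channel order, filters, robust eBayes, single probes and leaving out each array.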

Additional observations from a re-analysis of the deposited data

Results flagged for a closer look

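Of 29 results checked, 2 had 1 array far from the other 3, and chance picks out about 1 in 20. For GH9B10/GH9B11/GH9B12/GH9B9 the log2 ratio of 0.85 on set 4 stood above values of 0.57 to 0.59. For EXPA20/EXPA9 the 0.71 on set 2 stood above values of 0.33 to 0.38.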

How the results depend on the processing

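The orientation of the arrays decided the signs. With no array turned, 19 of the 29 named features changed the sign of their mean and the other 10 kept it, whether limit values were left out or kept. Keeping them with no array turned was chosen after the data were seen. The means then were -0.13 for EXPA21/EXPA23/EXPA24/EXPA25, -0.27 for EXPA21, -0.09 for EXPA20/EXPA9, -0.17 for EXPB5, 0.09 and 0.04 for the EXPB1/EXPB3 probes, -0.29 for EXLA1/EXLA2/EXLA3, -0.36 for EXLA1/EXLA3 and -0.16 for EXLA2/EXLB1. They were -0.01 for CSLA01, -0.07 for GH9B10/GH9B11/GH9B12/GH9B9, -0.02 for GH9B10/GH9B9, -0.08 for GH9C2/GH9C3, -0.27 for GH9A4, 0.17 for GH9B8, -0.01 for TBL37/TBL38/TBL41, -0.03 for TBL20, 1.48 for XTH21 and 0.28 for GAUT15. Several that kept their sign came close to 0 with no array turned, namely CSLC04 at 0.07, TBL39/TBL40/TBL42 and GH9B5/GH9B7 (A005984_01) at -0.03, TBL23/TBL24 (A013837_01) at -0.09, XTH19 at 0.10 and EXPA18/EXPA7 at -0.00. The other 4 had -0.20 for CSLC04/CSLC08/CSLC12/CSLC5, -0.38 for EXLB1, 0.14 for TBL41 and 0.50 for TBL36/TBL42/TBL43. Features with 1 sign on all arrays numbered 5, or 7 with limit values kept, instead of 23. With limit values kept and arrays turned, TBL36/TBL42/TBL43 had -1.30. The count of 0 called cell wall features held in each of the 14 alternatives and with members matched by symbol only. At an unadjusted p below 0.05 there were 2 to 20 in these alternatives. The count of 56 over all features was 1 with limit values kept, 0 with no array turned (852 at an unadjusted p below 0.05), 152 with both, 18 with quantile normalization, 1 with the channel order term, 140 with 4 values required, 109 with robust eBayes and 0 to 2 without 1 array. Leaving out 1 array moved the members' median between 0.04 and 0.17, gave XTH21 values from -0.70 to 0.53 and GAUT15 values from -0.30 to 0.04, and turned no other named feature. XTH21 was positive without replicates 2 and 4, at 0.53 and 0.14, and GAUT15 without replicate 2. Without 1 array XTH19 ranged from 0.28 to 1.02, TBL36/TBL42/TBL43 from 0.12 to 0.74 and TBL39/TBL40/TBL42 from -0.88 to -0.34. The range was 1.74 to 2.55 for EXPA21/EXPA23/EXPA24/EXPA25 and 0.73 to 0.90 for CSLC04. The cause was not tested. The number of arrays, 4, limits the precision. Each log2 ratio already pairs the 2 genotypes within an array, and the test against 0 uses that pairing. No further pairing was made, because the arrays form 1 group.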
